A study of Mus musculus with 10 samples.

Results

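Polycomb repressive complex 2 (PRC2) is the enzyme complex that methylates lysine 27 of histone H3. The 8 genes described here, of 21951 protein-coding genes in GENCODE M21, encode its core and its accessory subunits. They were chosen by name for what they encode. The core genes were Ezh1 and Ezh2, which encode the alternative methyltransferases, and Eed and Suz12, which encode the subunits that the methyltransferase needs for its activity. The accessory genes were Jarid2, which encodes a DNA-binding cofactor, and Mtf2, Phf19 and Phf1, which encode the Polycomb-like proteins. Each gene was examined for peaks of H3K4me3, the histone mark found at the starts of active or poised genes, and for ATAC-seq peaks, which mark open chromatin where the Tn5 transposase can insert. Peaks were sought at every annotated transcript start, in the gene body and up to 50 kb outside the gene.

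As background, PRC2 keeps developmental genes silent in embryonic stem cells. The mark that it writes is read by Eed, and the Polycomb-like proteins and Jarid2 help the complex to reach CpG islands. Embryonic stem cells can be kept without PRC2 but differentiate poorly. H3K4me3 at a promoter is usually centred just downstream of the start, and its breadth varies widely between genes.

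Both peak lists came from F123, a hybrid line of mouse embryonic stem cells whose parents were castaneus and S129/SvJae mice. The labels give no treatment. The cells grew on irradiated CF1 feeder fibroblasts and were passaged once on gelatin without feeders before harvest. The H3K4me3 list stands for 2 ChIP-seq replicates of 2000000 fixed cells each, and the ATAC-seq list for 2 replicates of 100000 fresh cells each. The other samples of the study (2 each of H3K4me3 PLAC-seq, CTCF PLAC-seq and input chromatin) were not analysed here. Neither list holds read counts or values per replicate. The depth is therefore unknown, no value below has a spread between replicates, and no difference between genes was tested. The data come from this 1 line, and the lists do not separate its parental alleles. Fold enrichment is the authors' ratio over background, 1 value per peak, and the sources used here do not give whether it was taken at the summit or over the full width. The value q is their p-value corrected for the number of regions tested. As a check of the label, chosen afterwards, the pluripotency genes Pou5f1, Sox2 and Nanog had both kinds of peak over a start in 3 of 3 cases. So did 65.1% of all protein-coding genes, and the count therefore cannot show the cell type.

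The promoters of the 8 genes were compared as sequence first. All 8 matched RefSeq promoter windows, which run from 250 bases before to 50 bases after a start in GRCm38.p6, and together they held 10 windows. The 2 windows of Mtf2 are shown because they differ most in CpG content, and the Ezh2 window because its H3K4me3 peak was the richest in CpG among the 8. Capitals mark CG dinucleotides. The first Mtf2 window is at the main start (chr5:108065424-108065723, plus strand), the next at an alternative start in intron 1 (chr5:108077915-108078214, plus strand), and the Ezh2 window is at chr6:47594981-47595280 on the minus strand.
Mtf2 main start: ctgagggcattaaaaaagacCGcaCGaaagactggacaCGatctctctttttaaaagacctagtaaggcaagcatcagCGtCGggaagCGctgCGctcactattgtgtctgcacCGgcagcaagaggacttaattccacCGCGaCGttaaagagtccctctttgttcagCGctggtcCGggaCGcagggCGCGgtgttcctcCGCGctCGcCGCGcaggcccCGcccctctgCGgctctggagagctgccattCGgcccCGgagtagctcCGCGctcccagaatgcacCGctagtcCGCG
Mtf2 alternative start: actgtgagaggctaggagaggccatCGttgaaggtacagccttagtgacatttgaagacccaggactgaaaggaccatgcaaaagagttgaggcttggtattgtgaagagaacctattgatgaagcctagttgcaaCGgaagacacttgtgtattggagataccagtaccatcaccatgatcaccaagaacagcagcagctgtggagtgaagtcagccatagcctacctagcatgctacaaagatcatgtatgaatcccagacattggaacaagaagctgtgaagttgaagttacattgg
Ezh2: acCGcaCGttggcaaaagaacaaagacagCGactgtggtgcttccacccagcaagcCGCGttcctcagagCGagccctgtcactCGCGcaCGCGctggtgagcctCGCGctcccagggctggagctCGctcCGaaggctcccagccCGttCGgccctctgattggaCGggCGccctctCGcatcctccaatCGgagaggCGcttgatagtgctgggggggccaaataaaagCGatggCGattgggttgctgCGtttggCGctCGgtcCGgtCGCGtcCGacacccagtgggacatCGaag

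The window at the main start of Mtf2 held 30 CpG and had a CpG observed over expected of 1.09, the ratio of the CpG found to the number that its C and G content would give. The window at the alternative start held 2 CpG, with a ratio of 0.13. The Ezh2 window held 31 CpG, with a ratio of 1.00. Over all 32851 RefSeq windows the median ratio was 0.38. These were taken whether or not H3K4me3 covered them, while an H3K4me3 peak covered each of the 10 windows of the PRC2 genes. The Mtf2 alternative start was the exception among the 10 windows of the PRC2 genes, since the other 9 had ratios of 0.70 to 1.09.

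Motifs were searched on both strands of the 10 windows. CCAAT was found in 6 windows, of Ezh2, Eed, Suz12, Jarid2 (2 windows) and Mtf2 (alternative start only), against 37.4% of all windows. GGGCGG, the GC box, was found in 6 windows, of Suz12, Jarid2 (2 windows), Mtf2 (main start only), Phf19 and Phf1, against 35.7% of all windows. TTCCCGC, the core of E2F sites, was found in Suz12 and Phf19, against 4.60% of all windows. TATAAA was found in 1 Jarid2 window, against 13.6%, and AAGATGGC, a core of YY1 sites, in Phf19, against 2.75%. GCATGCGC (NRF1, 2.71% of all windows), CCGGAAG (ETS, 8.86%) and CACGTG (E-box, 7.15%) were found in 0 of the 10. These matches are of letters and were not tested as binding sites. The stretches with the E2F letters and the TATA box are shown with the motif in capitals, because 2 genes shared the E2F letters and the TATA box lay close to a start. They lie at chr11:79992877-79992905 (plus strand) for Suz12, chr2:34914167-34914195 (minus strand) for Phf19, where the motif reads on the opposite strand, and chr13:44731229-44731256 (plus strand) for Jarid2.
Suz12 E2F: gacccctcattTTCCCGCgaattcagttc
Phf19 E2F: gtcaataattcGCGGGAAaacgcgaaaaa
Jarid2 TATA: gccctaacttgTATAAAagcagagtcca

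The E2F letters began 218 bases before the RefSeq start of Suz12 and 208 bases before that of Phf19. The TATA box of Jarid2 began 31 bases before the start of its window, which was the more downstream of the pair of RefSeq starts of that gene.

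All 8 PRC2 genes had an H3K4me3 peak over an annotated start, and all 8 had an ATAC-seq peak over one. Among all protein-coding genes 66.7% (95% Wilson interval 66.1 to 67.3, counting error only) had H3K4me3 over a start, 69.8% had an ATAC-seq peak and 65.1% had both. A majority of genes thus carried both marks, and whether the PRC2 genes carried them more often was not tested. The 8 genes differed among themselves in the extent of H3K4me3. The widest H3K4me3 peak over a start, called the promoter peak here, ran from 1501 bp at Phf1 to 6895 bp at Jarid2. The median over the 8 was 3270 bp, against 2201 bp over the 14637 protein-coding genes with such a peak and 1135 bp over all 33487 peaks of the list. The median fold enrichment was 40.0 for the 8 promoter peaks and 30.9 for those of all protein-coding genes.

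**Figure D1:**
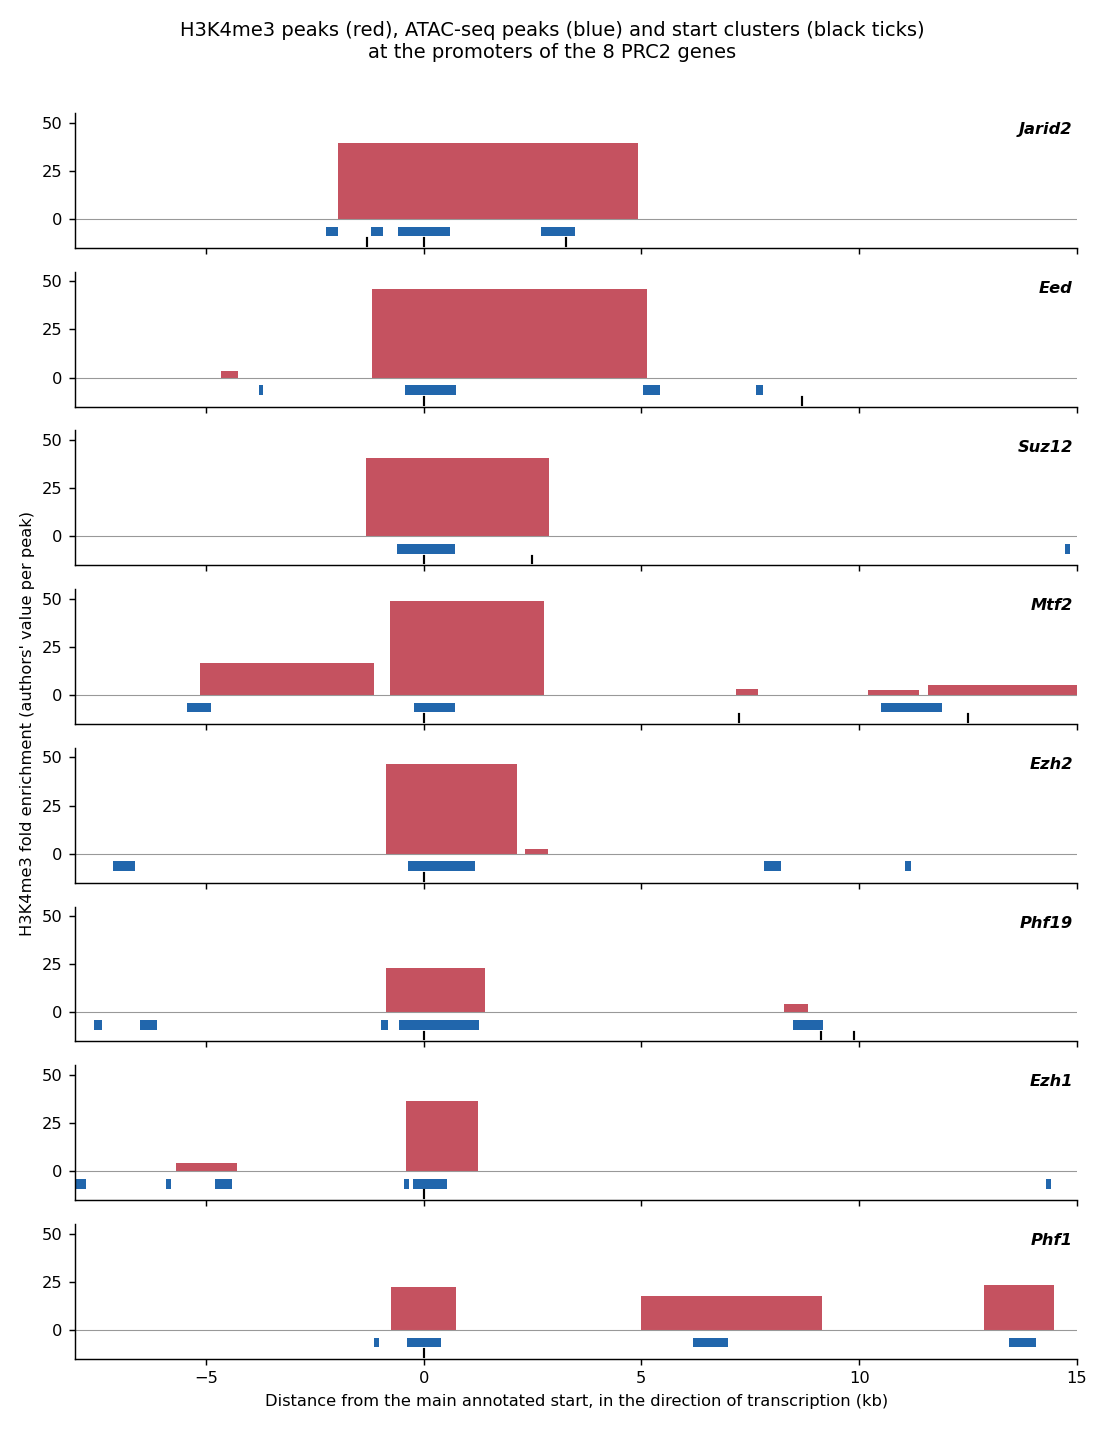
H3K4me3 peaks (red boxes, height is the fold enrichment), ATAC-seq peaks (blue boxes) and annotated start clusters (black ticks) at each PRC2 gene, with the distance from the main start in kb on the x axis and the direction of transcription to the right. The genes are in order of promoter peak width, from Jarid2 (6895 bp) to Phf1 (1501 bp), and at Mtf2 a further broad peak lies 357 bp upstream of the promoter peak.

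Among the core genes, Eed, which encodes the subunit that reads the methyl mark, had the widest promoter peak. It spanned chr7:89975865-89982164, or 6300 bp, at a fold enrichment of 45.8 (−log10 q 704). It ranked 126 of 33487, where rank 1 is the widest, and 0.37% of the list was wider. It reached 5118 bp into the gene and 1181 bp upstream of the main start, and took in exons 1 and 2. The same peak covered the start of E230029C05Rik, a non-coding gene on the opposite strand, so that the peak cannot be assigned to Eed alone. The ATAC-seq peak at the start was 1163 bp wide and covered the E230029C05Rik start too.

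Suz12, which encodes the zinc finger subunit that holds the core together, had a promoter peak of 4198 bp (chr11:79991779-79995976, fold enrichment 40.8, −log10 q 738, rank 909). It extended 2870 bp downstream and covered exons 1 to 3. Ezh2, which encodes the main methyltransferase of dividing cells, had a peak of 2992 bp (chr6:47593206-47596197, fold enrichment 46.5, −log10 q 782, rank 3185). Ezh1, which encodes the methyltransferase more typical of resting cells, had the narrowest peak of the core genes. It was 1658 bp wide (chr11:101225214-101226871, fold enrichment 36.4, −log10 q 547, rank 11707), which was narrower than the median promoter peak of protein-coding genes. Its fold enrichment was above their median. The pair of methyltransferase genes thus differed by 1334 bp in peak width, with fold enrichments of 46.5 and 36.4.

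Among the accessory genes, Jarid2 had the widest peak of all 8. It spanned chr13:44728799-44735693, or 6895 bp, at a fold enrichment of 39.3 (−log10 q 617), and ranked 74, with 0.22% of the list wider. It covered 3 of the 4 start clusters of the gene and overlapped 4 ATAC-seq peaks. Mtf2, which encodes the Polycomb-like protein most typical of embryonic stem cells, had the highest fold enrichment of the 8, 48.9, over 3548 bp (chr5:108064895-108068442, −log10 q 870, rank 1768). Phf19 had a peak of 2258 bp (chr2:34912629-34914886, fold enrichment 22.9, −log10 q 320, rank 6830). It covered the start of Gm13448 as well, a non-coding gene on the opposite strand. Phf1 had the narrowest and least enriched peak of the 8 (chr17:26932293-26933793, 1501 bp, fold enrichment 22.5, −log10 q 315, rank 13156). The 3 Polycomb-like genes therefore spanned the whole range of the set in fold enrichment, with Mtf2 at the top and Phf19 and Phf1 at the bottom.

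**Figure D2:**
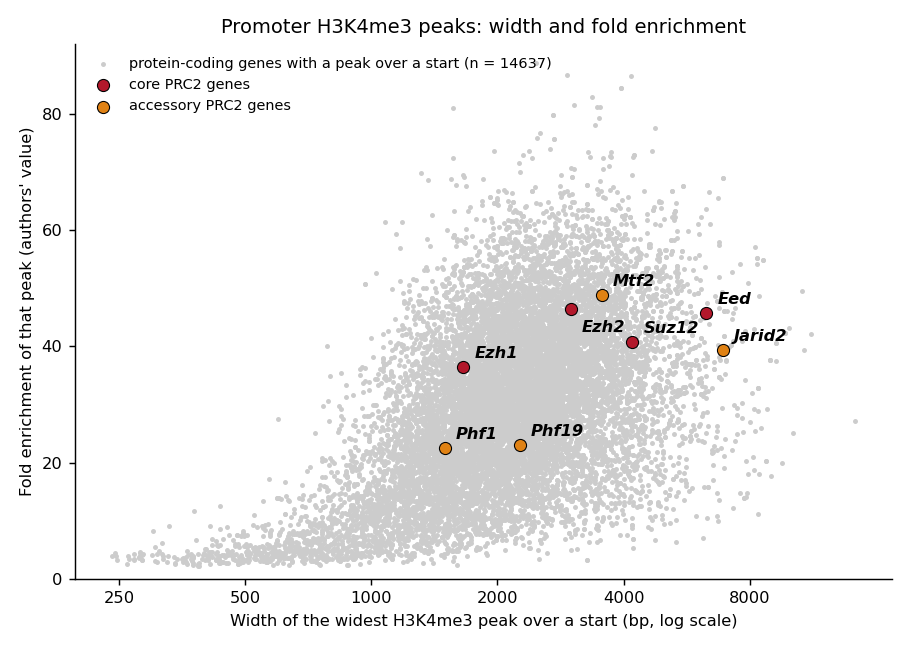
Width of the widest H3K4me3 peak over a start (x axis, bp, log scale) against its fold enrichment (y axis, the authors' value) for 14637 protein-coding genes (grey points), with core PRC2 genes in red and accessory ones in orange. Jarid2 and Eed lie at the wide end of the cloud with fold enrichments of 39.3 and 45.8, and Phf1 and Phf19 lie below the other 6.

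The promoter peak reached farther downstream than upstream of the main start in 7 of the 8 genes. This was so for 83.4% of the 13580 protein-coding genes whose main start lay under a peak. The exception was Phf1, with 759 bp upstream and 741 bp downstream. The downstream reach was 4.33 times the upstream reach at Eed, 3.55 times at Mtf2 and 3.06 times at Ezh1. The summit, the point of highest signal, lay 146 to 1010 bp downstream of the main start in 7 genes. At Jarid2 it lay 639 bp upstream of the main start, between the first and the main start cluster. The median over protein-coding genes was 209 bp downstream.

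Rank changed where neighbouring peaks were joined. At Mtf2 a further H3K4me3 peak of 3998 bp (chr5:108060540-108064537, fold enrichment 16.6, rank 1109) ended 357 bp upstream of the promoter peak. It was wider than the promoter peak itself and covered no annotated start of any gene. When peaks up to 1 kb apart were joined, the Mtf2 domain became 7903 bp wide and ranked 172 of 28934 domains, ahead of Jarid2 (288) and Eed (404). At Ezh2 a weak peak of 535 bp (fold enrichment 2.53) lay 189 bp past the promoter peak, and the joined domain was 3716 bp wide. The promoter peaks of the other 6 genes had no neighbour within 1 kb.

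The ATAC-seq peak at the main start followed another order. It was widest at Phf19, where it spanned 1833 bp, ranked 326 of 179109 ATAC-seq peaks and covered the start of Gm13448 too. Next was Ezh2 with 1525 bp (rank 1193). The widths at the other genes were 1318 bp at Suz12, 1207 bp at Jarid2, 1163 bp at Eed, 948 bp at Mtf2, 769 bp at Phf1 and 764 bp at Ezh1. The median ATAC-seq peak of the list was 261 bp wide. Open chromatin took up 82.6% of the H3K4me3 peak at Phf19, 20.0% at Eed, 26.7% at Mtf2 and 31.4% to 51.2% at the other 5. At Eed the rest of the wide H3K4me3 peak held only the edge of 1 further ATAC-seq peak, of 391 bp, at its downstream end. At Jarid2 it held 3 more, 2 of them over further start clusters.

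The 8 genes had 84 annotated transcripts with 76 distinct starts. Starts up to 500 bp apart were joined, which gave 35 start clusters. Of these, 13 lay under an H3K4me3 peak and 12 under an ATAC-seq peak, against 36.1% and 36.2% of the 52559 start clusters of all protein-coding genes. Both marks covered 10 clusters, H3K4me3 alone 3, ATAC-seq alone 2, and 20 had neither. Of those 20, 16 held no transcript annotated as protein-coding, against 21 of all 35 clusters.

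Ezh1 had 6 start clusters and Ezh2 had 8, and in both genes only the cluster at the main start was covered by either kind of peak. The other 5 clusters of Ezh1 lay 14636 to 22466 bp from an H3K4me3 peak and held no protein-coding transcript. Of the 7 others at Ezh2, those of transcripts Ezh2-202 and Ezh2-211 at 17331 bp and of Ezh2-210 and Ezh2-214 at 54606 bp each held 1 protein-coding transcript. At Eed only the main cluster of 5 was covered. The cluster of Eed-205 and Eed-208, 16142 bp into the gene, had an ATAC-seq peak 185 bp away. The only start cluster of Phf1 had both peaks.

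At Suz12 the promoter peak also covered a cluster 2480 bp downstream (Suz12-202, Suz12-203 and Suz12-205), which had no ATAC-seq peak within 1 kb. At Jarid2 the promoter peak covered clusters 1300 bp upstream and 3266 bp downstream of the main one, and each of the 3 had an ATAC-seq peak of its own. The fourth Jarid2 cluster (Jarid2-207 and Jarid2-211) lay 109917 bp downstream of the main start, in intron 3 of the reference transcript. An ATAC-seq peak of 190 bp covered it. An H3K4me3 peak of 581 bp (chr13:44840108-44840688, fold enrichment 3.94, −log10 q 12.2) shared 74 bp with that ATAC-seq peak and ended 3 bp before the first start of the cluster. The cluster therefore counted as covered by ATAC-seq alone, by a margin of 3 bp. The 76 bases of the ATAC-seq peak that precede this start (chr13:44840615-44840690, plus strand) held 7 CpG, in capitals, and are shown because this was the only internal start of Jarid2 with open chromatin beyond the promoter peak.
Jarid2 internal start: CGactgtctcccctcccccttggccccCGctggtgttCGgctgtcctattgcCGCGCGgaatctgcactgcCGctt

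Mtf2 was the only one of the 8 genes with H3K4me3 over starts outside the promoter peak. The cluster of Mtf2-211, 7241 bp into the gene, lay under a peak of 520 bp (fold enrichment 3.04, −log10 q 4.85). The cluster of Mtf2-215, 12491 bp into the gene, lay under a peak of 3451 bp (chr5:108077252-108080702, rank 1959 in width) with a fold enrichment of 5.35. This peak was about as wide as the Mtf2 promoter peak. Its fold enrichment was below the median of the list, 8.93. It had a neighbour of 1175 bp (fold enrichment 2.83), and an ATAC-seq peak of 1405 bp, the widest in any of the 8 bodies apart from those at the main starts of Ezh2 and Phf19, overlapped both. That ATAC-seq peak ended 598 bp before the Mtf2-215 start. At Phf19 the cluster of Phf19-202, 9119 bp into the gene, lay under an ATAC-seq peak of 674 bp and 291 bp from an H3K4me3 peak of 554 bp with a fold enrichment of 4.48, which lay over coding exon 6.

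Besides the 8 promoter peaks, the bodies held 8 other H3K4me3 peaks, 3 each in Jarid2 and Mtf2 and 1 each in Ezh2 and Phf19. All 8 were weak, with fold enrichments of 2.53 to 5.35, against 22.5 to 48.9 at the promoters. Their CpG content varied more than that of the promoter peaks, but they were mostly narrower, with a median width of 544.5 bp against 3270 bp. Whether the wider spread went with peak width was not tested. The promoter peaks had ratios of 0.50 (Mtf2 and Phf1), 0.60 (Eed), 0.61 (Phf19), 0.71 (Ezh1), 0.72 (Jarid2), 0.82 (Suz12) and 0.90 (Ezh2), where the median over peaks at protein-coding starts was 0.58. The 3 weak peaks of Mtf2 had ratios of 0.04, 0.08 and 0.11, and at least 96.8% of the list had a higher ratio than each of them. The weak Ezh2 peak had 0.08 and that of Phf19 0.52. The Jarid2 peaks in introns 2 and 3 had 0.30 and 0.39, where the median of the list was 0.48. The Jarid2 peak in intron 4, 233 bp wide, had 1.01, which only 0.15% of the list exceeded, with a fold enrichment of 3.96. The broad peak upstream of Mtf2 had 0.21.

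**Figure D3:**
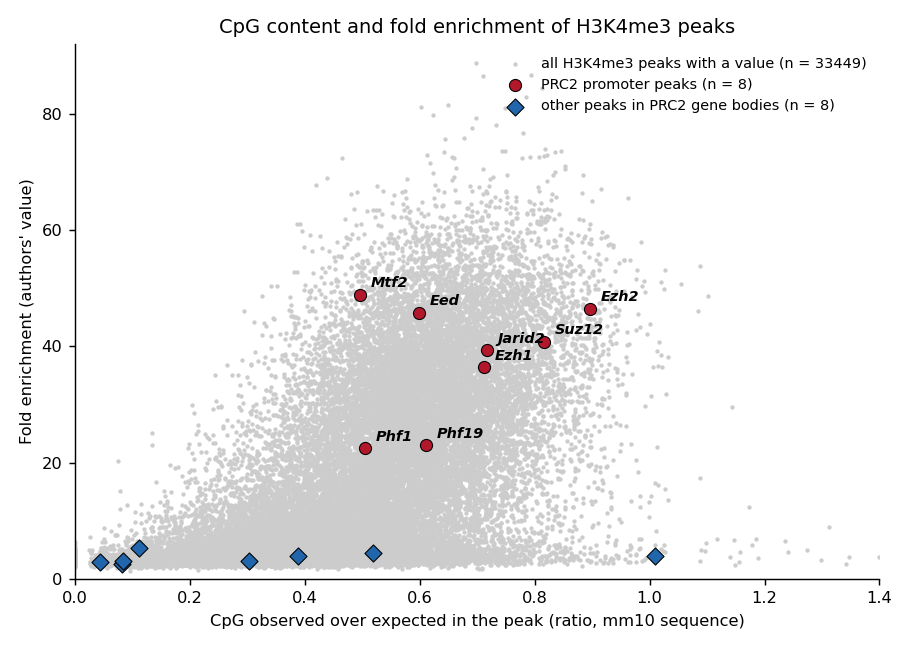
CpG observed over expected (x axis, ratio from the mm10 sequence) against fold enrichment (y axis, the authors' value) for 33449 H3K4me3 peaks (grey), with the 8 PRC2 promoter peaks (red circles) and the 8 other peaks in PRC2 gene bodies (blue diamonds). The promoter peaks have ratios of 0.50 to 0.90 and fold enrichments of 22.5 or more, and the other peaks range from 0.04 to 1.01 with fold enrichments up to 5.35.

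The bodies of the 8 genes held 64 ATAC-seq peaks, of which 12 covered an annotated start, 46 lay in introns, 4 over coding exons, 1 in a UTR and 1 over an exon of another transcript than the reference. An H3K4me3 peak overlapped 17 of them, and 47 had none. The share over all ATAC-seq peaks is not given here, so this split cannot be called particular to the 8 genes. Jarid2, which is 192170 bp long, held 30, of which 23 had no H3K4me3. Of those 23, 13 lay in the long intron 2. Mtf2 held 10, Suz12 6, Eed 5, and Ezh1, Ezh2 and Phf19 4 each. Phf1, only 4857 bp long, held 1, at its start. Per 10 kb of body the numbers ranged from 0.61 at Ezh2 to 2.31 at Mtf2, where the median of protein-coding genes was 1.11. Jarid2, with 1.56 per 10 kb, was therefore not the densest, and 37.4% of protein-coding genes were denser. It was the longest of the 8 genes, and whether its high count went with its length was not tested. Ezh2 stood lowest, and 67.4% of protein-coding genes were denser.

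The ATAC-seq peaks in introns were mostly narrow. At Suz12 the 5 peaks beyond the promoter were 126 to 189 bp wide. At Ezh2 the 3 were 143 to 394 bp wide, and 2 of them lay in intron 1. The widest at Jarid2 beyond the first 5 kb was one of 682 bp over coding exon 8, with no H3K4me3. At Eed 1 peak of 539 bp lay in intron 9, 116 bp from the start of Eed-204.

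**Figure D4:**
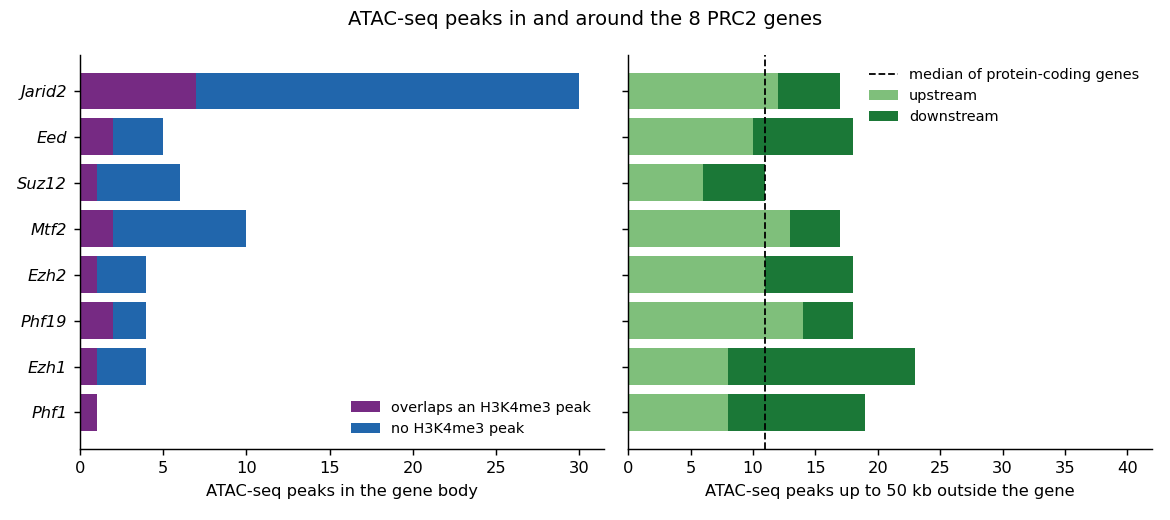
Number of ATAC-seq peaks in each PRC2 gene body (left), split by whether an H3K4me3 peak overlaps, and up to 50 kb outside each gene (right), split into upstream and downstream. Jarid2 holds 30 of the 64 peaks in bodies, and Suz12, with 11 peaks outside, equals the median of protein-coding genes while the other 7 exceed it.

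Up to 50 kb outside the genes lay 141 ATAC-seq peaks and 39 H3K4me3 peaks. The ATAC-seq counts were 23 at Ezh1, 19 at Phf1, 18 each at Ezh2, Eed and Phf19, 17 each at Jarid2 and Mtf2 and 11 at Suz12, and the median of protein-coding genes was 11. Thus 7 of the 8 genes lay above this median. The H3K4me3 counts spread more widely, with 15 at Ezh1, 8 at Phf1, 4 at Suz12, 3 each at Eed, Jarid2, Mtf2 and Phf19 and 0 at Ezh2. The median of protein-coding genes was 2.

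Of the 39 H3K4me3 peaks, 22 covered the start of another gene and 17 covered none. A protein-coding start lay under 21 of the 39, and under 15050 of all 33487 peaks of the list. At Ezh1, in a gene-dense stretch of chromosome 11, 9 of the 15 covered starts of Tubg2, Plekhh3, Cntnap1, Ramp2, Vps25 and Wnk4. The nearest, 4284 bp upstream, covered none and had a fold enrichment of 4.13. At Phf1 the nearest began 137 bp past the end of the gene and was 4142 bp wide (fold enrichment 17.5). It covered a start of Cuta, and Cuta overlaps Phf1 by 4090 bp on the opposite strand. At Phf19 the 3 peaks covered starts of Psmd5, Cutal and Traf1.

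The flanks of Jarid2 were of another kind, since its 3 peaks, all upstream, covered no start and had fold enrichments of 3.87 to 5.26. Each overlapped at least 1 ATAC-seq peak. The 17 peaks over no start had fold enrichments of 2.20 to 41.5, and 5 of them had 13.7 or more. Of these 5, 2 lay near Phf1 (41.5 and 23.4) and 1 near Ezh1 (19.5). The others were the broad peak at Mtf2 described above (16.6) and, at Suz12, a peak of 2898 bp (chr11:79973015-79975912, fold enrichment 13.7), 17194 bp upstream of the gene, with an ATAC-seq peak of 1074 bp in it. Ezh2 had 18 ATAC-seq peaks in its flanks and not 1 H3K4me3 peak.

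**Figure D5:**
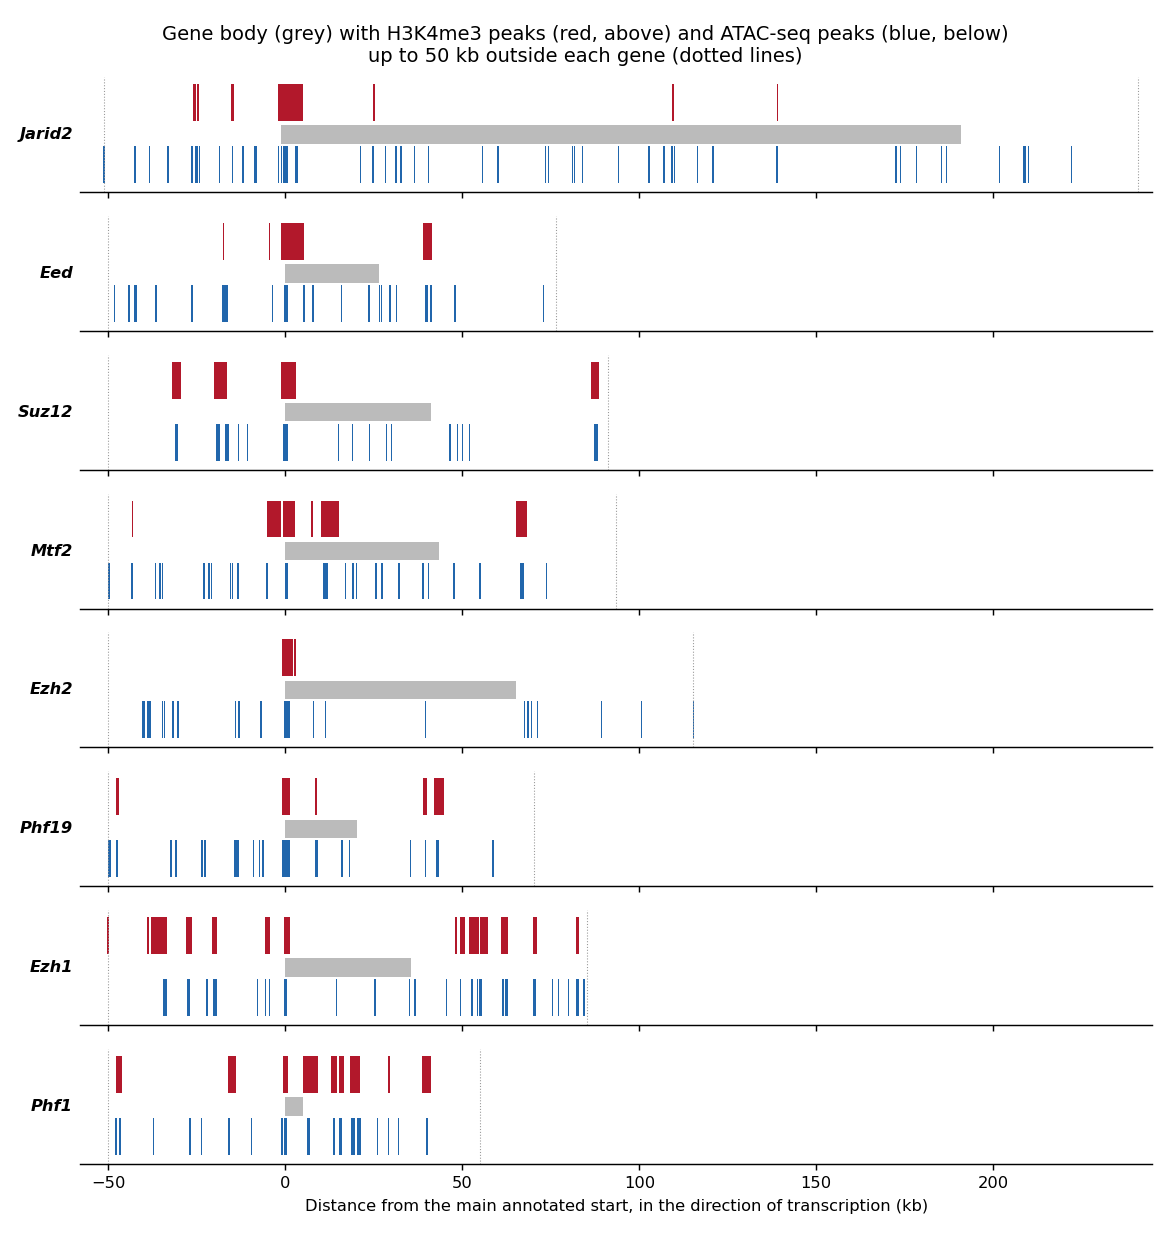
Gene bodies (grey bars), H3K4me3 peaks (red, above) and ATAC-seq peaks (blue, below) of the 8 PRC2 genes, with the distance from the main start in kb on the x axis, transcription to the right and dotted lines 50 kb outside each gene. Peaks narrower than 0.35 kb are drawn at that width. Ezh1 and Phf1 have 15 and 8 H3K4me3 peaks outside the gene, and Ezh2 has none.

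The other genes of the complex were taken from a list of 7: Rbbp4 and Rbbp7, which encode histone-binding subunits, the accessory genes Aebp2, Epop, Lcor and Lcorl, and Ezhip, which encodes an inhibitor of the enzyme. All 7 had an ATAC-seq peak over a start, and 6 had H3K4me3 there. The exception was Ezhip (AU022751 in GENCODE), on chromosome X. The 6 promoter peaks were 3129 to 5187 bp wide with fold enrichments of 28.2 to 60.2. The widest was that of Epop, at rank 358, and the most enriched that of Lcorl. Ezh1, Ezh2, Phf19 and Phf1 all had narrower peaks than any of these 6, and Eed and Jarid2 had wider ones.

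For each PRC2 gene, the protein-coding gene with the most similar promoter peak was found among 14629 genes by the width, fold enrichment, −log10 q and number of ATAC-seq peaks of that peak, each as a percentile. Ezh2 was closest to Sdhaf2, at a distance of 0.058 percentile points, with peaks of 2992 and 2995 bp. Phf1 was closest to Chrna4 (0.26 points), Suz12 to Anapc10 (0.63), Mtf2 to Khdrbs1 (1.50) and Ezh1 to Mrpl42 (1.85). Jarid2 was closest to Scd2 (2.48), Phf19 to Dpp7 (3.34) and Eed to Arhgap21 (4.02). Eed thus had the most distant match of the 8. The Arhgap21 peak was 4886 bp wide and, like that of Eed, overlapped 2 ATAC-seq peaks.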

How the data were processed

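Both lists came from F123 cells in 2 biological replicates per assay. For H3K4me3 the authors ran the uniform ENCODE pipeline for histone marks with its defaults. The peak list they deposited gives, for both replicates together, positions, summits, a fold enrichment (a ratio) and −log10 of p and q, of which p was not used. Its aligner, threshold and use of the input are not given in the sources used here. For ATAC-seq they mapped reads to mm10 using Bowtie 1.1.2, filtered them with SAMtools and shifted read ends by 4 bp to the Tn5 cut. They called peaks on pooled reads in MACS2 2.1.1.20160309. The cutoff of that call was on the p-value, uncorrected for the number of regions tested. Peaks also found in each replicate were retained (bedtools 2.27.1), and only their positions were deposited. A list of replicated peaks leaves out peaks seen in 1 replicate, and the absence of a peak does not show the absence of the mark.

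Genes and transcript starts were taken from GENCODE M21 on mm10. A peak covered a start when it shared at least 1 bp with it. Starts up to 500 bp apart formed a cluster, and the main start was the most upstream start of the cluster with the most protein-coding transcripts. Exons and introns were numbered in 1 reference transcript per gene. CpG ratios were computed from GRCm38.p6 for the 33449 peaks that gave a value. Positions are 1-based. The 8 genes, the list of related genes, the motifs and the rules were chosen with earlier results of these data known. The genes named were the 8, the listed related genes, neighbours with a start under an H3K4me3 peak within 50 kb, and the nearest match of each. Pou5f1, Sox2 and Nanog were added afterwards as a check of the cell type, which their peaks alone cannot show. Some neighbours are not reported here. Overlap counting was checked on simulated intervals and against bedtools 2.31.1. Scripts used pandas 2.3.3, numpy 2.4.6, pysam 0.24.0, scipy 1.17.1 and matplotlib 3.10.9 under Python 3.11.15. The alternatives changed the overlap rule, the transcripts, the clusters, the peak filters, the flank and the ranking.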

Additional observations from a re-analysis of the deposited data

How the results depend on the processing

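No paired analysis was possible because each list stands for both replicates, and for the same reason no replicate could be left out. All 8 genes kept both marks over a start under every alternative tried. Of the values recomputed, 45 stayed within 1.5 times the reported value (within the Wilson interval for shares of genes) and 27 did not. With peaks within 1 kb counted, 19 of the 35 start clusters had ATAC-seq and 15 had H3K4me3. The share of the start clusters of all protein-coding genes under this rule is not given here. Among the 15050 peaks over a protein-coding start, the share wider than the promoter peak was 67.5% for Ezh1, 19.5% for Ezh2, 0.78% for Eed, 5.65% for Suz12, 0.45% for Jarid2, 10.95% for Mtf2, 41.1% for Phf19 and 74.3% for Phf1, against 35.0%, 9.51%, 0.37%, 2.71%, 0.22%, 5.28%, 20.4% and 39.3% of the whole list. With peaks up to 1 kb apart joined, the share was 1.39% for Eed, 5.43% for Suz12, 0.99% for Jarid2 and 0.59% for Mtf2, whose domain was 7903 bp wide. The widest 50% of the ATAC-seq peaks left 33 in the bodies and 80 in the flanks. Flanks of 20 kb held 72 ATAC-seq and 20 H3K4me3 peaks, and flanks of 100 kb 248 and 73. The share of protein-coding genes with H3K4me3 over a start was 68.7% within 1 kb, 65.5% with protein-coding transcripts only and 68.0% on the autosomes. The ATAC-seq share was 75.0%, 68.1% and 71.1% under these, and 67.7% with the widest 50%. The cause of a shift was not tested beyond what each setting itself changes. Depth is unknown for both lists.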
